A study of Homo sapiens with 6 samples.

Results

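The S100 proteins are small calcium-binding proteins, each built around a pair of EF-hand loops, that work mostly as dimers. When calcium binds, most of them expose a hydrophobic surface and dock onto a target such as an annexin, a myosin heavy chain or a membrane linker, and several can also leave the cell and bind receptors at the surface of other cells. S100A4, S100A6 and S100P are known above all from work on tumour cell motility and invasion. Here 10 S100 genes (S100A2, S100A3, S100A4, S100A6, S100A10, S100A11, S100A13, S100A14, S100A16 and S100P) of the 60624 genes in the expression table were examined in A549 cells, an established human lung adenocarcinoma line. The members were chosen from the family with results of these data already known, so the differences given for them between groups are a description and carry no test.

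RNA sequencing was performed on 3 libraries of A549 cells transfected with a control siRNA (siCTR) and 3 libraries transfected with an siRNA against CEP20 (siCEP20), a centrosomal and microtubule-binding protein, with 3 days of transfection. The comparison asks which transcripts differ when CEP20 is depleted. All 6 libraries came from the same line in the same medium. Which CEP20 siRNA was used is not given in the sources used here. The methods describe experiments in general as independent repeats, but the labels do not say whether these replicates were separate cultures, so p-values measure only the spread between these samples, which may be in part technical. Expression was deposited as TPM (reads divided by transcript length and scaled to the same total in every library), and the read depth behind each value is unknown. CEP20 itself read 29.2, 30.5 and 35.1 TPM in siCTR and 16.2, 15.3 and 17.3 TPM in siCEP20, a log2 difference of -0.92 (SE 0.0915, limma adjusted p = 0.000205). In every library 14429 to 14987 genes reached 1 TPM, and log2 values of libraries of the same group correlated at 0.983 to 0.986. MTATP8P1, a pseudogene of a mitochondrial gene, was the highest gene of siCTR replicate 1 (23886 TPM) and siCEP20 replicate 1 (51263 TPM), whereas FTH1 was highest in the other 4 libraries. Without siCEP20 replicate 1 the log2 differences of S100A4, S100A6, S100A13 and S100P, described below, were -1.35, -1.09, -1.03 and -1.21.

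A549 cells carried the keratins of simple epithelium at high levels (KRT7 at 3893 ± 172 TPM in siCTR, SD, n = 3), but the lung lineage markers SFTPB and NKX2-1 were at or near 0 in both groups. The defining leukocyte S100 genes were also near 0: S100A12 was listed at 0 in every library, S100A8 reached 0.128 TPM in a single siCTR library and was listed at 0 in the other 5, and S100A9 lay between 0.258 and 1.77 TPM. Of the 18 other S100 and S100-fused genes, including calgranulins, psoriasins, filaggrins and hornerin, none reached the mean of 1 TPM needed for testing and 12 were listed at 0 in all libraries. Markers of other cell types were low but not all level between the groups. Of 5 fibroblast markers COL1A2 and DCN were listed at 0 throughout, while COL1A1 rose and brought the summed level of the list from 5.37 to 6.02 TPM in siCTR to 17.5 to 20.03 TPM in siCEP20. Of 6 leukocyte and myeloid markers PTPRC was at or near 0 and FCGR3A was listed at 0, 3 were tested and CD68 rose, with summed levels of 25.7 to 36.1 and 36.7 to 57.2 TPM. The 4 endothelial markers summed to at most 0.125 TPM, and of 6 squamous markers KRT5 and IVL were listed at 0 and TP63 rose (summed levels 0.851 to 1.22 and 2.53 to 3.10 TPM). Of 10 lung epithelial markers 7 were tested and 6 rose without rescaling, beside 30.2% higher and 13.2% lower over all tested genes. CDH1, EPCAM and KRT8 were among those that rose (summed levels of the list 7031 to 7334 and 8475 to 8710 TPM). NAPSA went the other way, from 1.92 TPM in siCTR to 1.06 TPM in siCEP20, with groups that overlapped, and did not pass. The part of these markers in the S100 differences was not tested. Because these are bulk libraries, fewer cells of a type and less RNA per cell cannot be told apart in any of the levels below.

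Of the 10 members, 9 lie on chromosome 1q21 and S100P lies on chromosome 4. S100A10 and S100A11 sit next to each other, and 1487 kb further along the chromosome begins a run of 7 members from S100A6 to S100A13 that spans 96.8 kb. All 9 are transcribed from the minus strand. The S100A3 gene body overlaps that of S100A4 on the same strand, but their annotated exons do not overlap. RefSeq promoter windows (GRCh38.p14, 250 bases before to 50 after a transcription start) were found for all 10 members, 14 windows in all. The 80 bases around the start (60 before, 20 from the start on) are printed for the 4 members that stood below 50% of their siCTR level. They are also printed for the 3 whose level was within 5% of it. S100A2 and S100A16, also lower in siCEP20 (58.9% and 80.9% of siCTR), fall outside both sets and are not printed. Capitals mark TATAAN (N is any base), a TATA-like motif, on the strand of the gene, beginning 40 to 20 bases before the start. The motif was chosen after the sequences had been seen, and the members with their differences known. Nothing is therefore read from how the motif divides them.
S100A6, chr1:153535972-153536051, minus strand: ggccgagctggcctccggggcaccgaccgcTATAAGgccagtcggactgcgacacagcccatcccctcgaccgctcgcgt
S100A4, chr1:153545787-153545866, minus strand: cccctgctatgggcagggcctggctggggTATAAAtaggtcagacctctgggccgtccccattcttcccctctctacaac
S100A13, the second of 3 RefSeq starts, chr1:153627486-153627565, minus strand: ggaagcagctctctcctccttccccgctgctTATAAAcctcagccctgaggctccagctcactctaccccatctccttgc
S100P, chr4:6693818-6693897, plus strand: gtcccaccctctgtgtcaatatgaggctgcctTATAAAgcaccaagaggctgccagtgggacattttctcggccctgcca
S100A11, chr1:152036985-152037064, minus strand: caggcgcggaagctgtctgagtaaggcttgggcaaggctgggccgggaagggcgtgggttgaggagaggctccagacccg
S100A10, chr1:151993840-151993919, minus strand: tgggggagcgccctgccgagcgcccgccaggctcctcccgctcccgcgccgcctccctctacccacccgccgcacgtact
S100A3, chr1:153549239-153549318, minus strand: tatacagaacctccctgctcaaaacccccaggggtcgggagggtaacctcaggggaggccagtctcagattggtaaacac

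The motif began 30 bases before the start in S100A6, 31 in S100A4, 29 at the second start of S100A13 and 28 in S100P. The first and the third start of S100A13 did not hold it, and which start these cells used was not measured. S100A14, which was barely detected, also held it, 29 bases before the start. The windows of S100A2 (2 starts) and S100A16 (2 starts), both lower in siCEP20, did not hold it at that place. Nor did those of S100A3, S100A10 and S100A11. Over all 35116 RefSeq windows, 3.91% held it there. Among tested genes other than the members, the 396 with the motif had a median log2 difference of 0.22, against 0.14 for the 10108 without, and 6.57% against 3.99% of them were called lower. With length and GC content taken out, as described below, these medians were 0.0986 with the motif and -0.0082 without. Called lower were then 9.85% with the motif and 5.59% without. The match is a description of the sequence only, and the part of the motif in the S100 differences was not tested. Of other motifs looked for on either strand of the whole window, the AP-1 motif TGACTCA was found for S100A3 and for the first start of S100A2 (4.95% of all windows). GGGCGG, the letters of the GC box, was present for S100A6, S100A10, S100A11, S100A3 and one start each of S100A16 and S100A13 (45.0% of all windows).

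S100A6 was the most abundant member. Also called calcyclin, it binds CACYBP and annexin A11 and rises in proliferating cells. Its level was 4039, 3751 and 3403 TPM in siCTR and 1784, 1860 and 1643 TPM in siCEP20. All siCEP20 libraries lay below all siCTR libraries, and the mean went from 3731 ± 318 to 1762 ± 110 TPM (SD, n = 3), 47.2% of the control level. On the log2(TPM + 1) scale the difference was -1.08 (SE 0.0729). Among all genes ranked by mean TPM, S100A6 stood at place 24 in siCTR and 63 in siCEP20. An uncharacterised lncRNA on the opposite strand overlaps its exons, but that gene read only 3.30 TPM in siCTR and 3.31 TPM in siCEP20.

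S100A4, also named metastasin, binds the heavy chain of non-muscle myosin IIA and is a widely used marker of mesenchymal and motile cells. It was at 1948, 1941 and 1834 TPM in siCTR and 763, 788 and 710 TPM in siCEP20. The groups were far apart and each was narrow: 1907 ± 63.7 against 753.7 ± 39.98 TPM (SD, n = 3), or 39.5% of control. Its log2 difference of -1.34 (SE 0.0539) was the lowest among the members. In rank among all genes S100A4 went from 66 to 169.

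S100A11 and S100A10 were the next most abundant members, and for both the groups overlapped. S100A11 (calgizzarin) binds annexin A1 and takes part in membrane repair and the control of keratinocyte growth. It measured 1234, 1339 and 1300 TPM in siCTR and 1240, 1276 and 1489 TPM in siCEP20, with siCEP20 replicate 3 the highest of the 6 libraries. Its mean was 103% of control and its log2 difference 0.04 (SE 0.0735). The 8 S100A11 pseudogenes in the table reached at most 0.0550 TPM, and 7 of them were listed at 0 throughout.

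S100A10 (p11) differs from the rest of the family in that its EF-hands no longer bind calcium, and it forms a stable heterotetramer with annexin A2 that holds plasminogen at the cell surface. Its levels were 922.3, 954.3 and 974.5 TPM in siCTR and 912, 926 and 905 TPM in siCEP20. The ranges overlapped narrowly, the mean was 96.2% of control and the log2 difference was -0.06 (SE 0.0436).

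S100A16, a broadly expressed member, read 255, 267 and 280 TPM in siCTR and 213, 220 and 216 TPM in siCEP20. All siCEP20 libraries were lower, but the step was small: the mean was 80.9% of control and the log2 difference -0.30 (SE 0.0526). S100A3, best known from the hair cuticle, showed no such step. Its values were 153, 147 and 168 TPM in siCTR and 154, 154 and 160 TPM in siCEP20, so that the siCEP20 range lay wholly inside the siCTR range and the log2 difference was -0.00 (SE 0.0632). Within each library the ratio of S100A4 to S100A3, which share a stretch of the chromosome, was 12.2 ± 1.21 in siCTR and 4.84 ± 0.363 in siCEP20.

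S100A13 assists the export of fibroblast growth factor 1 and of interleukin 1 alpha, proteins that leave the cell without a signal peptide. It was at 75.5, 62.7 and 82.6 TPM in siCTR and 27.1, 33.5 and 37.0 TPM in siCEP20, 44.2% of control, with a log2 difference of -1.16 (SE 0.133). Its exons overlap those of S100A1 on the opposite strand (0.690 TPM in siCTR) and of an lncRNA on the same strand. That lncRNA read 10.3, 25.7 and 9.38 TPM in siCTR and 9.905, 16.5 and 8.67 TPM in siCEP20, with groups that overlapped. Reads in shared exons may have been divided between these genes.

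S100P, which binds ezrin and is active outside the cell as a ligand of the receptor AGER, read 53.5, 53.9 and 35.8 TPM in siCTR and 19.6, 21.6 and 18.1 TPM in siCEP20. The siCTR libraries were uneven, with replicate 3 well below replicates 1 and 2 but above all siCEP20 libraries. Its mean was 41.3% of control and its log2 difference -1.21 (SE 0.155). S100A2, a member lost in many epithelial tumours, was the lowest of the tested members at 6.08, 7.37 and 6.42 TPM in siCTR and 3.11, 4.65 and 3.95 TPM in siCEP20, 58.9% of control, with a log2 difference of -0.65 (SE 0.145). S100A14 was listed at 0 in 5 libraries and at 0.206 TPM in siCTR replicate 3, and was not tested.

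**Figure D1:**
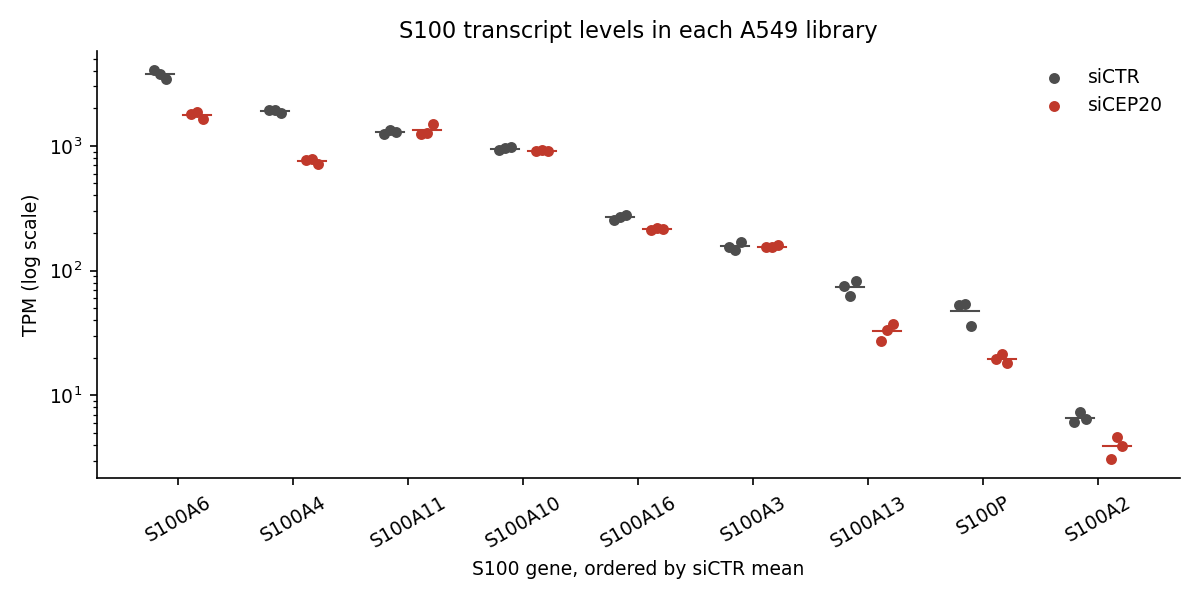
TPM (log axis) of the 9 tested S100 genes in each library, with siCTR in grey and siCEP20 in red, points for libraries and lines for group means (n = 3). The red points lie below all grey points for S100A6, S100A4, S100A16, S100A13, S100P and S100A2, and the groups overlap for S100A11, S100A10 and S100A3.

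Of the 9 tested members, 6 lay lower in every siCEP20 library than in any siCTR library, 3 overlapped and none lay higher. Over all 14778 tested genes 17.0% lay wholly lower and 38.4% wholly higher. By limma with adjusted p under 0.05, 6 members passed lower and none passed higher, beside 13.2% and 30.2% of all tested genes, and 5 members (all but S100A16 of the 6) also passed the fold change threshold of 0.67, beside 4.61% of all tested genes lower and 11.2% higher. Since the members were selected on this contrast, nothing is read from these counts. The median log2 difference of the 9 members was -0.65 and that of all tested genes was 0.13. Relative to that general shift the members ranged from -1.47 for S100A4 to -0.09 for S100A11, and S100A3 and S100A10 stood at -0.13 and -0.19.

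**Figure D2:**
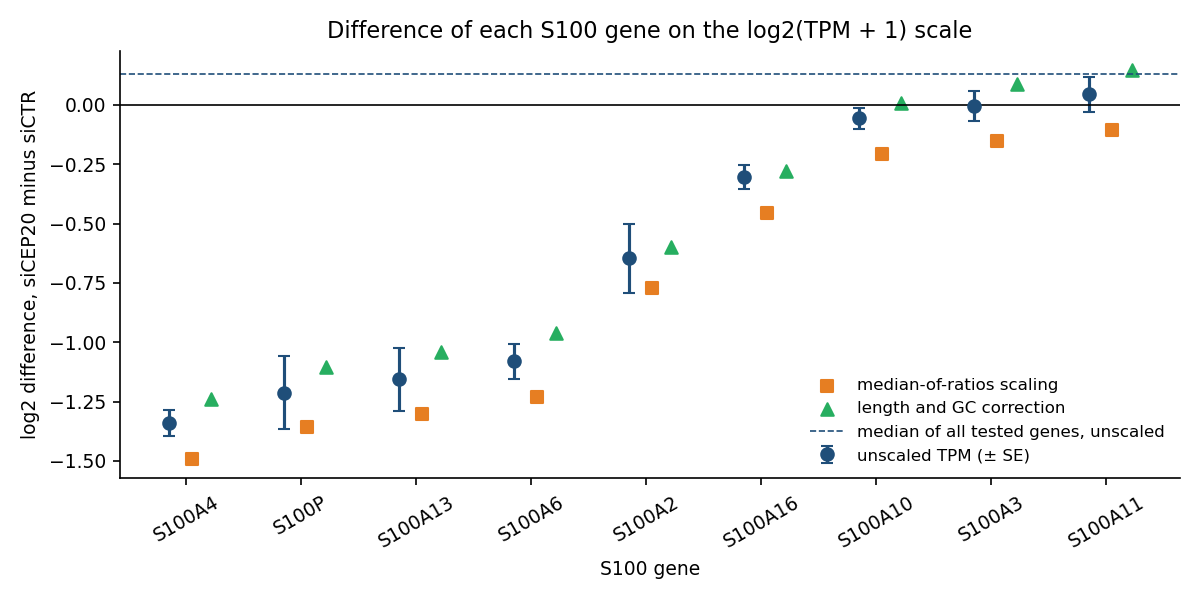
Log2 difference (siCEP20 minus siCTR, log2(TPM + 1)) of each tested S100 gene without rescaling (circles, bars are SE), after median-of-ratios scaling (squares) and after transcript length and GC content were corrected for (triangles). S100A4, S100P, S100A13 and S100A6 lie near or below -1 by all 3 measures, from -1.49 to -0.96, whereas S100A10, S100A3 and S100A11 lie around 0 and take a sign that depends on the scaling.

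The direction of S100A10, S100A3 and S100A11 was not stable. With median-of-ratios scaling their log2 differences were -0.21, -0.15 and -0.11, and with the length and GC correction 0.01, 0.09 and 0.15. The other 6 tested members were lower under each of these settings.

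The S100 transcript pool was smaller in siCEP20 and differently made up. Summed over the 10 members, it came to 8686, 8523 and 8085 TPM in siCTR and 5115, 5283 and 5181 TPM in siCEP20, that is 0.843 ± 0.0311% and 0.519 ± 0.00846% of all TPM (SD, n = 3). Without S100A4 and S100A6 the sum was 2793 ± 81.1 TPM in siCTR and 2678 ± 135 TPM in siCEP20, and these groups overlapped. S100A4 and S100A6 together made up 66.8 ± 2.07% of the pool in siCTR and 48.4 ± 2.63% in siCEP20. S100A11 went from 15.3% to 25.7% of the pool and S100A10 from 11.3% to 17.6%, both with groups that did not overlap, although the levels of these genes themselves overlapped between the groups.

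In order of level siCTR libraries ran S100A6, S100A4, S100A11, S100A10, S100A16, S100A3, S100A13, S100P, S100A2 and S100A14, and in siCEP20 libraries S100A4 stood behind S100A11 and S100A10 and before S100A16. In both groups every neighbour in this order was separate from the next, with no overlap between libraries. The ratio of S100A4 to S100A11 went from 1.48 ± 0.0879 to 0.570 ± 0.0807 and that of S100A6 to S100A10 from 3.93 ± 0.444 to 1.93 ± 0.1003. These ratios are taken within each library, so a single scaling factor per library leaves them as they are, whereas quantile normalization does not. S100A4 was also lower relative to S100A6, since the ratio of S100A6 to S100A4 was 1.95 ± 0.111 in siCTR and 2.34 ± 0.0229 in siCEP20.

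**Figure D3:**
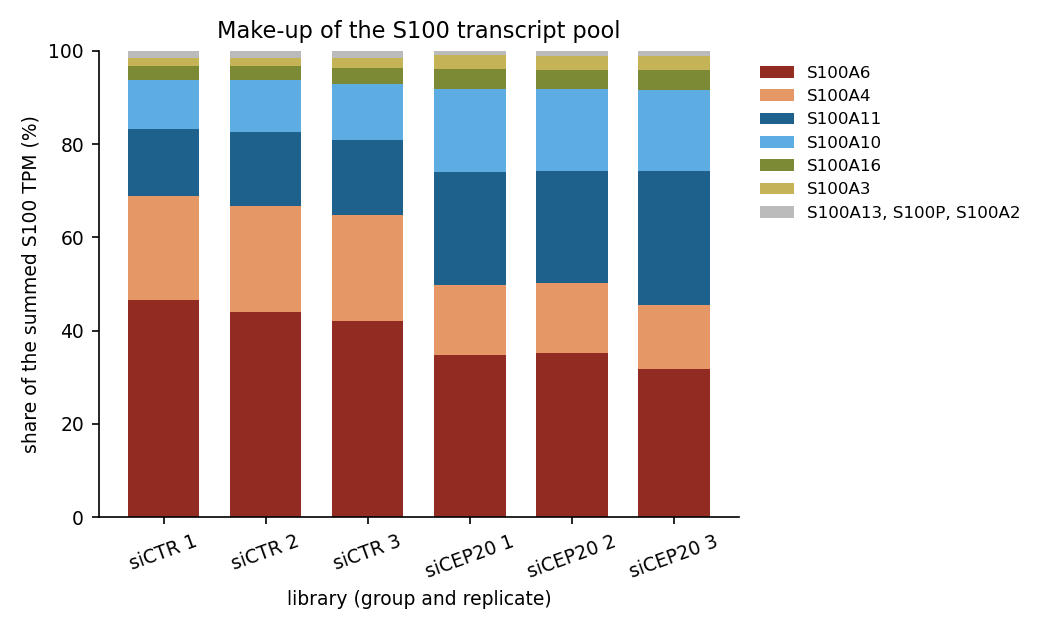
Share of each S100 gene in the summed S100 TPM of each library, in percent, with bars stacked from S100A6 at the bottom to the 3 least abundant tested genes in grey. S100A6 and S100A4 together hold 64.8 to 68.9% of the pool in the siCTR libraries and 45.4 to 50.1% in the siCEP20 libraries.

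All members have short transcripts, 434 to 1172 bases for the 9 tested, and transcript length moved with the difference over the whole table. Across 14737 tested genes with an annotated length, the Spearman correlation of log2 difference and length was 0.25, over genes, which are not independent replicates. The median log2 difference was -0.05 for the 720 genes under 500 bases and -0.08 for the 1446 genes of 500 to 1000 bases, and reached 0.24 for those of 4000 bases or more. Of genes under 500 bases 13.5% were called lower, and of those of 500 to 1000 bases 14.5%, against 1.25% of the longest class. With length and GC content taken out, S100A4 was at -1.24, S100P at -1.10, S100A13 at -1.04, S100A6 at -0.96, S100A2 at -0.60 and S100A16 at -0.28. This correction also brought the median of all tested genes from 0.13 to -0.0005. The like values without it are therefore those relative to that median. In the same order they were -1.47, -1.34, -1.29, -1.21, -0.78 and -0.44.

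**Figure D4:**
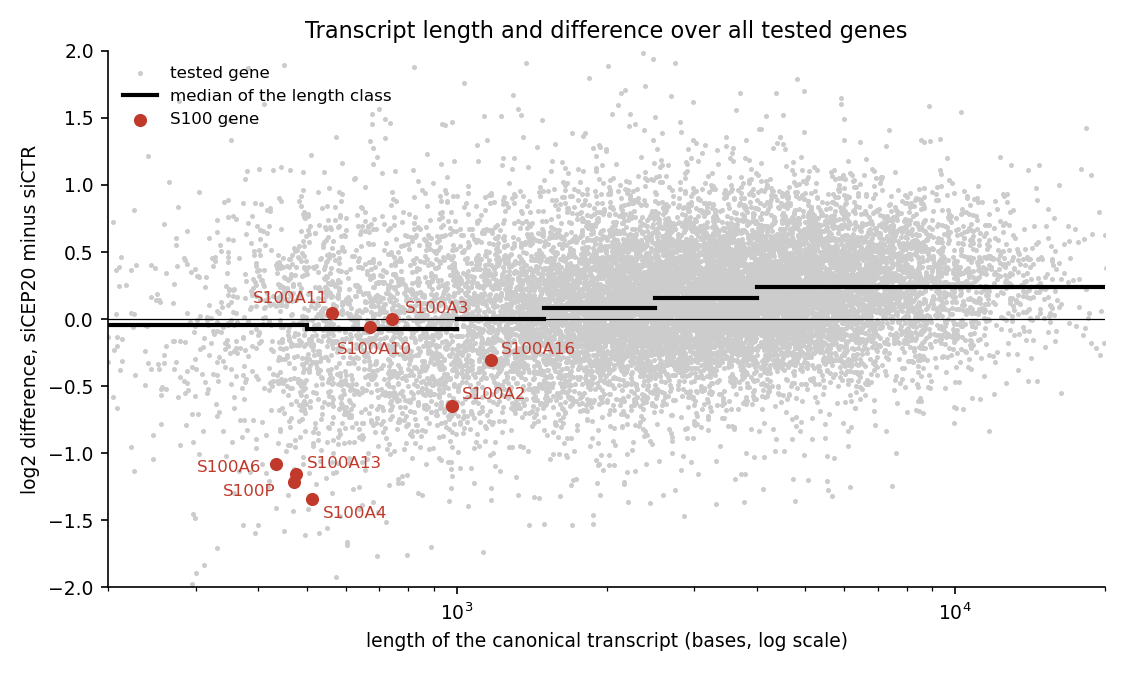
Log2 difference (siCEP20 minus siCTR) against the length of the canonical transcript in bases (log axis) for tested genes (grey, differences within 2 shown), with the median of each length class as a black line and the S100 genes in red. Class medians run from -0.08 to 0.24, and S100A6, S100A13, S100P and S100A4 lie below -1, well below the medians of their classes.

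Genes for binding partners of S100 proteins, from a list written from general knowledge, rose more often than they fell without rescaling. Of 18 listed, 17 were tested: 9 rose, 1 fell and 7 did not pass, beside 30.2% higher and 13.2% lower over all tested genes. The median log2 difference was 0.25, or 0.11 relative to all tested genes. With median-of-ratios scaling 7 partners passed higher and 3 lower, and with the length and GC correction 6 passed higher and 5 lower. Over all tested genes 2963 of 14778 passed higher and 3185 lower with that scaling. With that correction 2952 of 14737 passed higher and 3126 lower. Among the annexins that bind S100 proteins, ANXA1, the partner of S100A11, was at 408, 418 and 415 TPM in siCTR and 703, 762 and 699 TPM in siCEP20 (log2 difference 0.80, SE 0.0505, limma adjusted p = 4.14e-05). ANXA11, bound by S100A6, rose slightly, from 56.5 ± 4.01 to 67.2 ± 1.25 TPM (adjusted p = 0.0194), a call lost under 5 alternatives (adjusted p 0.0542 to 0.777). ANXA2, the partner of S100A10 and the most abundant gene of the list, measured 4809 ± 55.8 TPM in siCTR and 4559 ± 161 TPM in siCEP20 and did not pass (adjusted p = 0.182). ANXA6, a membrane-binding annexin, did not pass either (100.5 and 114.5 TPM).

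Among partners in the cytoskeleton, EZR (ezrin, which links membrane and actin and binds S100P) rose from 171, 176 and 180 TPM to 319, 334 and 331 TPM (log2 difference 0.90, SE 0.0491, limma adjusted p = 3.07e-05). MYH9, the myosin heavy chain bound by S100A4, rose from 236 ± 10.2 to 341 ± 8.17 TPM (log2 difference 0.53, adjusted p = 0.000196), and IQGAP1, a scaffold of the actin cortex, from 106 ± 14.5 to 156 ± 16.3 TPM (0.56, adjusted p = 0.00422). The giant scaffold AHNAK, a partner of the S100A10 and ANXA2 complex, read 124 and 109 TPM, and the liprin PPFIBP1 read 56.5 and 56.4 TPM. Neither passed.

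The ubiquitin ligase MDM2, which several S100 members bind, rose from 12.3 ± 1.36 to 19.6 ± 1.88 TPM (log2 difference 0.63, limma adjusted p = 0.00215). The synaptic vesicle protein SYT1 (0.38, adjusted p = 0.0130) and nucleolin, NCL (0.28, adjusted p = 0.00986), also rose. SYT1 no longer passed with the length and GC correction (adjusted p = 0.147), nor did NCL with that correction or median-of-ratios scaling (adjusted p 0.158 and 0.0728). S100PBP, a nuclear protein that binds S100P, was the gene that fell, from 16.1 ± 0.491 to 13.1 ± 1.43 TPM (log2 difference -0.28, adjusted p = 0.0406). That call was lost when siCTR replicate 1, 2 or 3 or siCEP20 replicate 1 or 3 was left out, and with no filter on low values (adjusted p 0.0665 to 0.124). CACYBP, which binds S100A6 and ubiquitin ligases, read 92.7 and 86.2 TPM, its relative SUGT1 37.2 and 37.4 TPM, and the phosphatase PPP5C 104.8 and 114.5 TPM, and none of these passed. FGF1, carried out of the cell with S100A13, was below the filter.

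Set against the gene of its partner within each library, S100A10 did not separate the groups: the ratio of S100A10 to ANXA2 was 0.190, 0.201 and 0.203 in siCTR and lay between 0.194 and 0.208 in siCEP20. For the other pairs looked at, all siCEP20 ratios lay below all siCTR ratios. In those with S100A6, S100A4 or S100P the S100 gene itself was lower, and these members were chosen with that known. Nothing is read from the separation of those pairs. The ratio of S100A11 to ANXA1 went from 3.12 ± 0.0916 to 1.86 ± 0.242, where it was ANXA1 that moved. S100A6 to CACYBP went from 40.3 ± 2.62 to 20.5 ± 1.70 and S100A6 to ANXA11 from 66.4 ± 10.0 to 26.3 ± 2.08. S100A4 to MYH9 went from 8.12 ± 0.590 to 2.21 ± 0.124, and S100P to EZR from 0.273 ± 0.0638 to 0.0602 ± 0.00502.

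**Figure D5:**
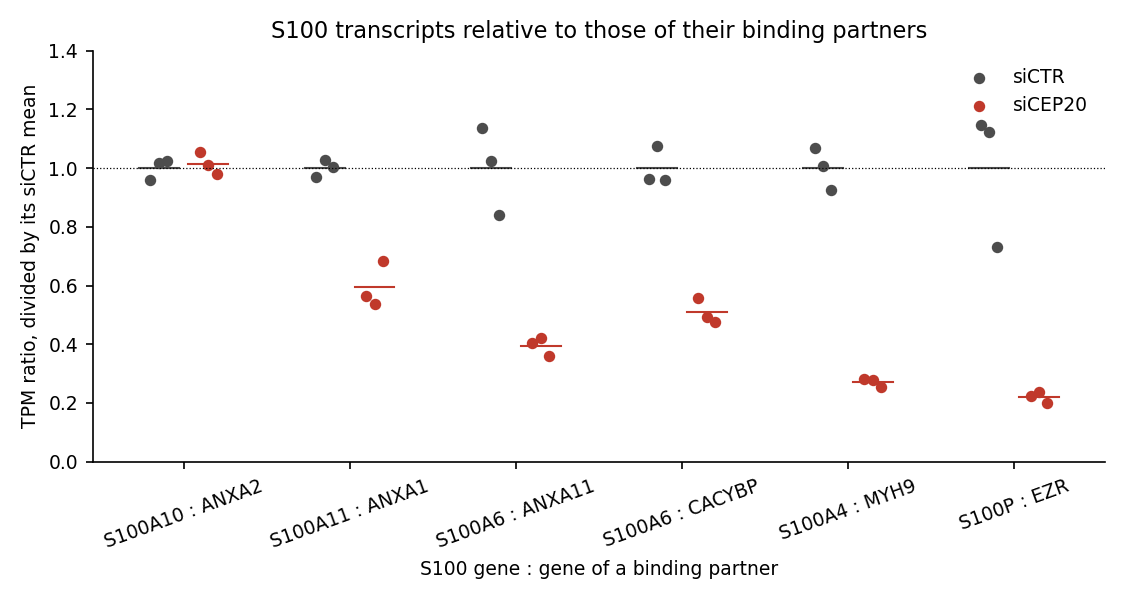
Ratio of S100 TPM to the TPM of a binding partner's gene in each library, divided by the mean siCTR ratio of that pair (siCTR grey, siCEP20 red, lines are group means, n = 3). The S100A10 to ANXA2 ratio overlaps between groups, at 0.960 to 1.03 in siCTR and 0.980 to 1.05 in siCEP20, whereas the S100P to EZR ratio in siCEP20 is 0.2004 to 0.236.

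Receptors reported to bind secreted S100 proteins were mostly higher without rescaling. Of 9 listed, 7 were tested, 6 rose and none fell, beside 30.2% higher and 13.2% lower over all tested genes. With median-of-ratios scaling 3 passed higher, beside 2963 of all 14778 tested genes. With the length and GC correction 4 did, beside 2952 of 14737. CD44, a hyaluronan receptor, rose from 451, 451 and 453 TPM to 657, 680 and 697 TPM (log2 difference 0.59, SE 0.0449, limma adjusted p = 7.33e-05). FGFR1 rose from 57.9 ± 3.77 to 93.1 ± 2.83 TPM (0.68, adjusted p = 0.000195) and the adhesion molecule ALCAM from 43.5 ± 2.72 to 69.6 ± 4.63 TPM (0.67, adjusted p = 0.000355). BSG (basigin), SDC1 and SDC4 (syndecans) rose by 0.22, 0.28 and 0.25, and with median-of-ratios scaling these 3 no longer passed (adjusted p 0.291, 0.105 and 0.221). With the length and GC correction SDC1 and SDC4 did not pass either. SDC4 was also lost with quantile normalization and without siCEP20 replicate 2 (adjusted p 0.0526 to 0.221 over its 4 settings). AGER, the receptor for advanced glycation end products and the best known S100 receptor, stayed at the edge of detection with 1.97 ± 0.315 TPM in siCTR and 2.12 ± 0.126 TPM in siCEP20 (adjusted p = 0.707). TLR4 and CD36 were below the filter.

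Of the 13 annexins, all tested, 5 rose and none fell, beside 30.2% higher and 13.2% lower over all tested genes, with a median log2 difference of 0.17. With median-of-ratios scaling 3 annexins passed lower, and with the length and GC correction 2 did. Over all tested genes 3185 of 14778 passed lower with that scaling and 3126 of 14737 with that correction. ANXA8L1 (0.92, limma adjusted p = 0.000103) and ANXA1 rose most, followed by ANXA8 (0.79, adjusted p = 0.000624). ANXA8 and ANXA8L1 are near-identical copies whose reads may have been divided between them. Of 37 other EF-hand genes, 36 were tested: 14 rose, 9 fell and 13 did not pass, beside the same 30.2% higher and 13.2% lower over all genes, with a median of 0.11. With median-of-ratios scaling 7 passed higher and 12 lower, beside 2963 and 3185 of all 14778 tested genes. Without a filter on low values, when 28974 genes were tested, 9 passed higher and 5 lower. The largest rises were in CETN2 (centrin, 0.63, adjusted p = 0.000132), the mitochondrial EFHD1 (0.59, adjusted p = 0.0133) and the actin bundler PLS3 (0.56, adjusted p = 0.000371). The largest falls were in the myosin light chains MYL6 (1425 ± 38.6 to 906 ± 44.2 TPM, -0.65, adjusted p = 7.42e-05) and MYL9 (-0.49, adjusted p = 0.0275) and in the penta-EF-hand protein PEF1 (-0.58, adjusted p = 0.000808). EFHD1 and MYL9 lost their calls under 2 and 5 alternatives (adjusted p 0.0545 to 0.0551 and 0.0765 to 0.0980).

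Genes beside the members on the chromosome were taken by position alone, within 100 kb. Of 42 such genes 15 were tested, 4 rose and 2 fell, close to the 30.2% higher and 13.2% lower over all tested genes, and the median log2 difference was 0.13, as over all genes. With median-of-ratios scaling 2 passed higher and 3 lower, beside 2963 and 3185 of all 14778 tested genes. NPR1, the receptor of atrial natriuretic peptide, rose from 1.80 ± 0.157 to 4.49 ± 0.0979 TPM (0.98, limma adjusted p = 0.000605), INTS3 of the Integrator complex by 0.47 (adjusted p = 0.00225) and ILF2 by 0.27 (adjusted p = 0.00965). CHTOP, an mRNA export factor, fell by 0.25 (adjusted p = 0.00904) and BLOC1S4, a subunit of the BLOC-1 complex near S100P, by 0.30 (adjusted p = 0.0197). The call of BLOC1S4 was lost when siCTR replicate 2 or 3 or siCEP20 replicate 1 or 3 was left out (adjusted p 0.0560 to 0.0691), and that of ILF2 with median-of-ratios scaling (adjusted p = 0.125).

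The genes whose level over the 6 libraries was most like the summed S100 level, among 8940 genes averaging 10 TPM or more, were NME1, RPS18, GSTO1, PSMA7 and PSME2 (Pearson r from 0.9989 to 0.9996 on the log2 scale). NME1, a nucleoside diphosphate kinase, read 473, 455 and 439 TPM in siCTR and 277, 287 and 280 TPM in siCEP20. Such values arise largely from the step between the groups, and 784 genes reached an r of 0.95, so that this likeness is a description over libraries that share their normalization.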

How the data were processed

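RNA-seq libraries of A549 cells (3 siCTR, 3 siCEP20) were sequenced by the authors, who trimmed reads with fastp 0.20.1, aligned them to hg38 with HISAT2 2.1.0 and estimated expression with StringTie 2.0, per the labels. The deposited table held TPM values for 60624 genes and no counts, so depth and counting error are unknown. TPM adds to the same total in each library, so a gene's value depends on all the others. All 6 columns were matched to samples by name, with the columns left without a sample numbering 0. Symbols, positions and transcript lengths were taken from GENCODE 44 (60370 genes matched).

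Genes averaging 1 TPM or more were compared by limma 3.58.1 (R 4.3.3) with an intensity trend on log2(TPM + 1), without rescaling, with Benjamini-Hochberg adjustment over all 14778 tested genes. This pseudocount understates the differences of low genes. Genes passed at adjusted p under 0.05 and were called with a fold change over 1.5 or under 0.67. The script was tested on simulated data. The study's own count test could not be run on TPM.

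The members and gene lists were chosen with earlier results of these data known. Named were CEP20, the members, all tested partners and receptors (1 partner is not reported here), and in the annexin, EF-hand and neighbour lists the 3 passing genes with the largest difference in each direction. The 5 genes most like the summed S100 level were also named. Alternatives were another pseudocount, 2 filters, 2 scalings, a fit without trend, a replicate block, leaving out each library, a correction for length and GC content (loess, span 0.5), protein-coding genes only and a fold change of 2.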

Additional observations from a re-analysis of the deposited data

How the results depend on the processing

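In the settings run, 6 to 7 S100 members passed lower and 4 to 5 were called lower. In the main fit 13.2% of all tested genes passed lower and 4.61% were called lower. Since the members were selected on this contrast, nothing is read from these counts. The 4 lowest members stayed between -1.49 (S100A4) and -0.78 (S100A6, quantile normalization) on the log2 scale. S100A2 was no longer called without siCTR replicate 2, without siCEP20 replicate 1 or at a fold change of 2. S100A11 passed higher with quantile normalization (1 member, 0 otherwise). The summed S100 TPM was 55.4% of siCTR with median-of-ratios scaling and 61.6% without.

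Over all tested genes the split of passed higher against passed lower moved from 4457 and 1944 to 2963 and 3185 with median-of-ratios scaling, 2952 and 3126 with the length and GC correction, and 2938 lower with quantile normalization. Called higher went from 1659 to 894, 894 and 923 under those settings and to 261 at a fold change of 2. Called lower went from 682 to 1103 with median-of-ratios scaling and to 147 at a fold change of 2.

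With median-of-ratios scaling passed higher went to 3 of the receptors, 7 of the EF-hand genes and 2 of the neighbours, and passed lower to 3 partners and 3 annexins. With the length and GC correction 5 partners and 2 annexins passed lower, and SUGT1 turned to -0.27. Quantile normalization gave 1 annexin lower. Without a filter 9 EF-hand genes passed higher and 5 lower, and 0 partners lower. Without a trend 5 EF-hand genes passed lower. Leaving out 1 library gave 0 to 1 partners, 0 to 1 annexins, 5 to 8 EF-hand genes and 1 to 2 neighbours lower. The EF-hand count was lowest without siCTR replicate 2 or siCEP20 replicate 1. Of 135 log2 differences of the members 121 moved by less than 1 SD. Of 567 values of other named genes 527 had the same outcome as the main fit, counting genes that passed in neither. A further 33 no longer passed, 6 passed only under the alternative and 1 (SUGT1) reversed its sign. Apart from what the settings themselves change, the cause was not tested.

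Libraries with the same replicate number correlated in their deviations at 0.157, -0.06 and -0.06, so the numbers were not taken to pair samples. As a hint from the data, siCTR replicate 1 correlated best with its own number, but siCTR replicates 2 and 3 with another (0.170 and 0.104). The libraries numbered 1 also shared MTATP8P1 as their highest gene, and whether they share a batch was not tested. With the replicate block 4274 genes passed higher and 1857 lower, with 6 S100 members lower. The precision of each value is limited by 3 libraries a group, unknown depth and the deposited scaling.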
